A study of Mus musculus with 11 samples.

Results

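Gas5 (growth arrest-specific 5) and 6 genes of the Snhg family, Snhg1, Snhg5, Snhg6, Snhg8, Snhg11 and Snhg12, are long noncoding RNA genes that carry small nucleolar RNAs (snoRNAs) in their introns. These 7 host genes were selected on their symbols from the rows of the deposited tables, out of 22609 genes listed. All 7 were among the 17557 genes that were tested, those whose counts summed to 10 or more. The selection was made with earlier results of these data in view. The differences of Gas5 between AnkGKO and the other genotypes are therefore given as descriptions, without p-values.

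The libraries hold polyadenylated RNA from mouse tissue labelled cerebellar hemisphere, 3 from control, 3 from NFKO (Pcp2-Cre;NfascFx/Fx), 2 from AnkGKO (Pcp2-Cre;AnkGFx/Fx) and 3 from DKO mice (Pcp2-Cre;NfascFx/Fx;AnkGFx/Fx). The controls are named flox controls in the labels, and the study's methods describe them as NfascFx/Fx;AnkGFx/Fx mice and also as mice with floxed alleles of one or both genes and no Cre, so that the alleles of each control are not known here. Of the 3 mutant genotypes, AnkGKO is the only one whose name holds no floxed Nfasc allele. All mice were untreated littermates of mixed sex and of 1 labelled batch, their strain is given as C57BL/6J or as a mixed background with 129, and their age as postnatal day 30 in the sample descriptions and day 32 in the growth protocol. Pcp2-Cre drives recombination mainly in Purkinje cells, a small share of cerebellar cells, while the RNA came from whole tissue, so that fewer cells of a type and less RNA per cell cannot be told apart.

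A snoRNA host gene is transcribed and spliced like other RNA polymerase II genes, and its introns are trimmed to snoRNAs. C/D box snoRNAs guide ribose methylation and H/ACA box snoRNAs guide pseudouridylation of ribosomal and other RNAs. The spliced host RNA often starts with a tract of pyrimidines, the terminal oligopyrimidine (TOP) motif that places its translation under the control of mTOR signaling, and it is often degraded by nonsense-mediated decay after translation of a short reading frame. Gas5 RNA accumulates in cells whose growth is arrested and can bind the glucocorticoid receptor, and Snhg11 is known as a neuronal transcript.

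The members lie on 6 chromosomes of the mouse genome build GRCm39, by the GENCODE vM39 annotation. Gas5 spans chr1:160861793-160866118 on the plus strand and Snhg6 spans chr1:9926809-10014504 on the minus strand, and these are the only members on the chromosome of Nfasc. Snhg11 is at chr2:158217558-158228071 (plus), Snhg8 at chr3:123301192-123302578 (minus), Snhg12 at chr4:132035905-132038762 (plus), Snhg5 at chr9:88377321-88405615 (minus) and Snhg1 at chr19:8700319-8703812 (plus). The annotation places 27 snoRNA genes inside them, 9 in Gas5, 8 in Snhg1, 4 in Snhg12, 2 each in Snhg5 and Snhg11, and 1 each in Snhg6 and Snhg8.

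The start sites show what these promoters share. RefSeq windows of 250 bases before to 50 bases after the start were at hand for 6 members, with 2 windows for Gas5, and each matched GRCm39 exactly at 1 place in its gene. Shown are 40 bases before and 30 bases from the start, 5′ to 3′ on the gene's strand, with capitals for TATA between 45 and 15 bases before the start and for the pyrimidine tract, a C followed by at least 4 C or T bases that begins 5 bases before to 10 bases after it.
Gas5, chr1:160862696-160862765, plus: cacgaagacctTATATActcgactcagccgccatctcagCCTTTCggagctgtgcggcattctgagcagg
Snhg12, chr4:132035949-132036018, plus: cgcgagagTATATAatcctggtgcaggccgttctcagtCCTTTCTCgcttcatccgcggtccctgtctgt
Snhg8, chr3:123301956-123302025, minus: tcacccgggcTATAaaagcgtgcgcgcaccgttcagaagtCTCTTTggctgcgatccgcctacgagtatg
Snhg5, chr9:88404921-88404990, minus: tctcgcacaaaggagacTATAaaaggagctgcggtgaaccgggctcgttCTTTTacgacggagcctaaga
Snhg1, chr19:8700811-8700880, plus: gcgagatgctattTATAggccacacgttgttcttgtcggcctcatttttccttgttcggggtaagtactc
Snhg11, chr2:158217593-158217662, plus: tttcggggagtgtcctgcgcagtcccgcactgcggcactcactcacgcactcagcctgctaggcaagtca

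TATA stood at this distance in 5 of the 6 members, all except Snhg11, against 7.23% of 32544 RefSeq windows. The tract was found in 4 of 6, Gas5, Snhg5, Snhg8 and Snhg12, against 22.3% of all windows, and both together in the same 4, against 1.72%. Gas5 was the only member with TGACGTCA, a palindrome known as the cAMP response element, which 1.8% of all windows hold, and it began 46 bases before the start. The other window of Gas5 held none of these motifs. The GENCODE canonical transcripts of 5 of the 6 members begin upstream of these RefSeq starts, by 942 bases in Gas5. A match describes letters in the window and is no evidence of a start site in this tissue.

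The snoRNAs are shown by 1 sequence for each host with a snoRNA listed in the count table, on the strand of the host, with the C and D boxes (TGATGA or TGAAGA, and CTGA) or the terminal ACA in capitals.
Snord47, in Gas5, chr1:160865652-160865728: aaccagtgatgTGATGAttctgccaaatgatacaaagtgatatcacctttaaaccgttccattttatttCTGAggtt
Snord22, in Snhg1, chr19:8703230-8703355: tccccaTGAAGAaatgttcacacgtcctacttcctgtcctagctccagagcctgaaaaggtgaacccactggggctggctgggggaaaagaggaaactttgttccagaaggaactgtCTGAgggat
Snord87, in Snhg6, chr1:10012688-10012774: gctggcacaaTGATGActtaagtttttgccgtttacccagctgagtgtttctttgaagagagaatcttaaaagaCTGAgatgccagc
Snora24, in Snhg8, chr3:123301586-123301715: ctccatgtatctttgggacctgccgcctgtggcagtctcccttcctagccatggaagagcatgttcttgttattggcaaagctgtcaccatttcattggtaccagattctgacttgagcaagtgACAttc
Snora61, in Snhg12, chr4:132037551-132037680: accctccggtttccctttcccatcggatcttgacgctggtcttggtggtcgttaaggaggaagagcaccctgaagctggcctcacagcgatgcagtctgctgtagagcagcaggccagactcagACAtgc

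Counts on genes totalled 38890851 to 55822361 per library, so that 3 counts, taken as the floor, equalled 0.0546 to 0.0780 CPM. Ank3, which encodes AnkG, was at 353 to 375 CPM in control, 385 to 407 in NFKO, 156 and 200 in AnkGKO, and 160 to 185 in DKO, while Nfasc was at 661 to 718 in control, 622 to 701 in NFKO, 717 and 953 in AnkGKO, and 559 to 606 in DKO (CPM, counts scaled to library size with TMM factors). Markers of cerebellar cells were low in most libraries: Pcp2 stood at 26.3 CPM in control replicate 1, 28.3 in NFKO replicate 1 and at most 2.14 elsewhere, and Gabra6, a granule cell gene, at 84.2 and 59.0 in the same libraries and at most 4.41 elsewhere. The 12 Hox genes listed as markers of caudal tissue summed to 395 to 615 CPM in every library. Xist was above 10 CPM in 5 libraries, control replicates 1 and 2 and the 3 DKO, and between 0.344 and 1.39 CPM in the other 6, among them both AnkGKO. Ddx3y, a Y chromosome gene, was at 89.6 to 108 CPM in those 6 and in DKO replicate 1, where Xist stood at 28.4 CPM. It was at 7.20 CPM in control replicate 1 and at most 0.342 in control replicate 2 and DKO replicates 2 and 3. Sex markers were thus uneven over the genotypes. The part of these features in the differences between genotypes was not tested, beyond the values given without control replicate 1 and NFKO replicate 1 and with Xist as a covariate.

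Snhg11 was by far the most abundant, at 779 ± 104 CPM (SD, n = 11 libraries), which placed it at percentile 99.3 of the genes tested. Gas5 was at 25.7 ± 8.19 CPM, and the other 5 members were between 5.42 ± 0.590 (Snhg1) and 9.13 ± 0.735 CPM (Snhg8). In counts, every library held at least 200 reads on each member, and Snhg11 held 29153 to 48784.

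Levels of different genes were compared per kilobase, since longer transcripts gather more reads. Per kilobase of all annotated exons, Snhg11 (91.3 ± 12.1 CPM per kb) was followed by Snhg8 (6.58 ± 0.530), Gas5 (6.09 ± 1.94), Snhg12 (2.99 ± 0.441), Snhg1 (1.55 ± 0.169), Snhg5 (1.35 ± 0.170) and Snhg6 (1.08 ± 0.12; SD, n = 11 libraries for each). The ranges over libraries of Snhg8 and Gas5, of Snhg1 and Snhg5, and of Snhg5 and Snhg6 overlapped, so those neighbours were not separated beyond their spread. Per kilobase of the canonical transcript, Gas5 took the second place at 38.5 ± 12.2 CPM per kb, 3.18 to 8.33 times the value of Snhg8 in the same library. Its canonical transcript has 669 bases while its exons in all annotated transcripts cover 4228. Snhg12 stood above Snhg1 in 11 of 11 libraries by all annotated exons. By the canonical transcript it stood below Snhg5 in 11 of 11, though their ranges overlapped. The positions of Gas5 and Snhg12 in the order therefore depend on the length used, whereas Snhg11 led with both lengths. Snhg6 had the lowest mean with both, but per kilobase of the canonical transcript its range overlapped that of Snhg12, which was higher in 9 of 11 libraries.

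**Figure D1:**
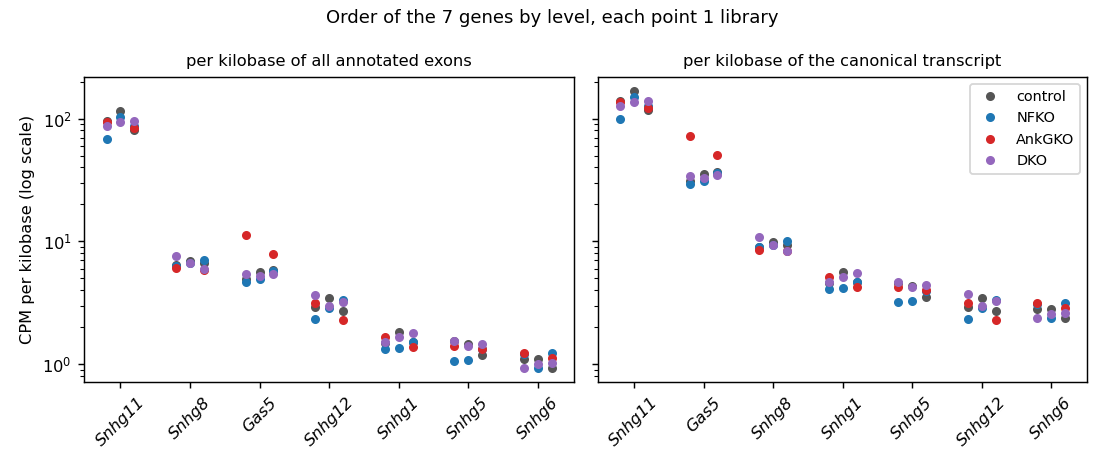
TMM-normalized CPM per kilobase (log axis) of the 7 genes in the 11 libraries, divided by the length of all annotated exons (left) or of the canonical transcript (right), with each point 1 library coloured by genotype. Snhg11 lies above all other members in both panels. Between them Gas5 changes place with Snhg8, and Snhg12 moves from above Snhg1 to below Snhg5.

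The members also differed in how much they varied. The coefficient of variation over the 11 libraries was 31.8% for Gas5 and between 8.05% (Snhg8) and 14.7% (Snhg12) for the other 6. Without the AnkGKO libraries Gas5 was at 7.62% over 9 libraries, close to the median of 8.36% over 1630 genes of similar level. Snhg11 varied more than genes of its level, at 13.3% against a median of 7.19% over 75 genes. NFKO replicate 1 held the lowest value of 4 members (Gas5, Snhg1, Snhg5 and Snhg11) and DKO replicate 1 the highest of 3 (Snhg5, Snhg8 and Snhg12).

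Gas5 stood at 20.9, 23.7 and 24.6 CPM in the control libraries, 19.6, 20.7 and 24.1 in NFKO, 47.8 and 33.6 in AnkGKO, and 23.0, 22.0 and 23.1 in DKO. Both AnkGKO libraries lay above the highest of the other 9 libraries, and the other 3 genotypes overlapped. The AnkGKO libraries also differed from each other more than any 2 of the remaining libraries did. In counts, AnkGKO held 2316 and 1548 reads on Gas5, against 805 to 1297 in the other libraries.

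**Figure D2:**
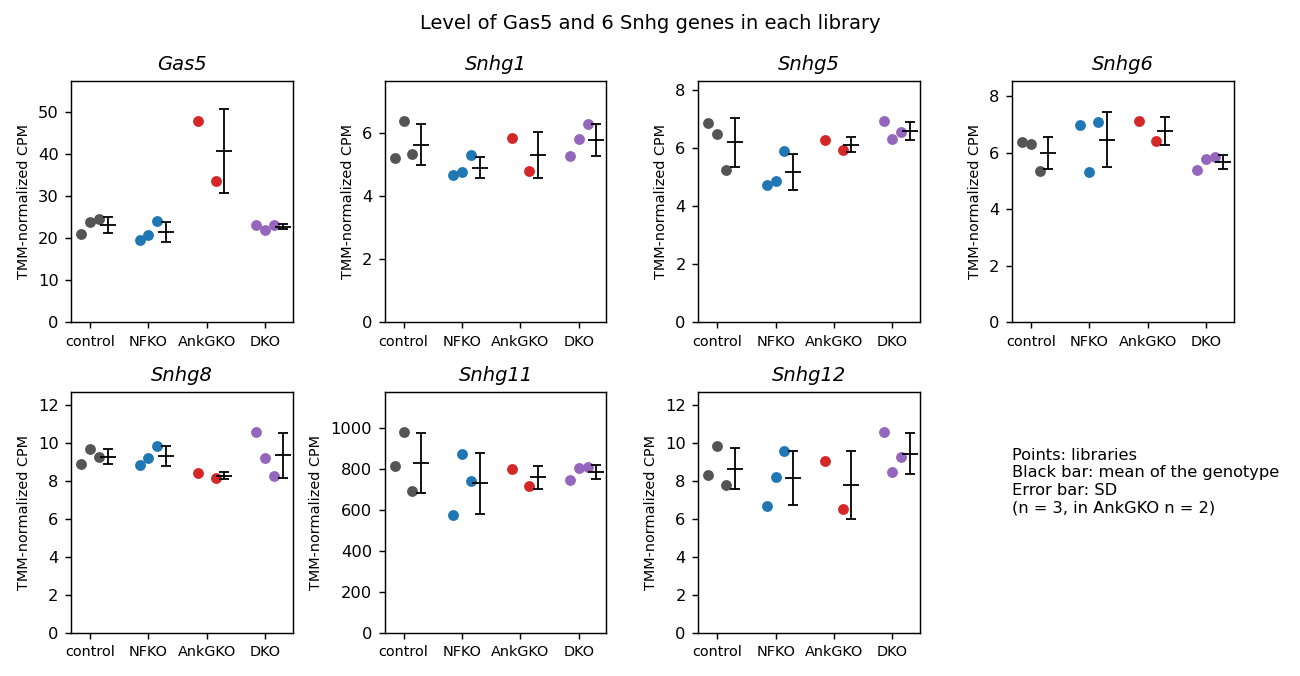
TMM-normalized CPM of the 7 host genes in each of the 11 libraries by genotype, with axes that start at 0; points are libraries, and the black bars give the mean and SD (n = 3, in AnkGKO n = 2). The AnkGKO libraries reach 47.8 and 33.6 CPM of Gas5, while the genotypes of the other members lie close together.

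Gas5 averaged 40.7 ± 10.01 CPM over the 2 AnkGKO libraries (mean ± SD), and 23.1 ± 1.94, 21.5 ± 2.33 and 22.7 ± 0.611 CPM over the 3 libraries each of control, NFKO and DKO. On the log2 scale AnkGKO was higher than control by 0.82 (standard error 0.14), which is 1.76-fold. DKO differed from AnkGKO by -0.84 (standard error 0.14) and NFKO from AnkGKO by -0.92 (standard error 0.14). In each of these 3 comparisons Gas5 met the study's thresholds and was called, which asks for a Benjamini-Hochberg adjusted p under 0.05 and a log2 difference of 0.6 or more in size, in the quasi-likelihood test of edgeR. It was the only member to do so, where 0.165% of all genes tested were called between AnkGKO and control, 0.171% between DKO and AnkGKO and 0.404% between NFKO and AnkGKO. In fits to only the 2 genotypes compared, Gas5 was called in none of these 3 comparisons. The comparisons share the 2 AnkGKO libraries, and nothing is read from the counts, since the choice of members was made with them known.

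The size of the difference rested on AnkGKO replicate 1. Without it the log2 fold change from control was 0.53 (standard error 0.13) and no longer met the thresholds, and without AnkGKO replicate 2 it was 1.05 (standard error 0.13). Without control replicate 1 and NFKO replicate 1, the libraries with cerebellar markers, it was 0.75 (standard error 0.15) and did not meet them. Leaving out any 1 control or DKO library or NFKO replicate 2 gave 0.75 to 0.87, and the adjusted p then missed the threshold. With Xist as a covariate it was 0.77 (standard error 0.19) and did not meet them either. The 4 libraries outside AnkGKO with Xist under 10 CPM held 19.6 to 24.6 CPM of Gas5, and the 5 libraries above that limit 20.9 to 23.7. The control libraries are split between both sets, and the part of Xist in the difference was not tested beyond the covariate. Of the marker lists, the 7 astrocyte markers summed to 4976 and 5620 CPM in AnkGKO, against 3732 to 4280 in control, 3608 to 4296 in NFKO and 4326 to 5373 in DKO, and the 8 microglia markers to 542 and 576 CPM against 403 to 496, 468 to 509 and 442 to 570. The 6 endothelial markers summed to 296 and 319 CPM in AnkGKO and 251 to 294 in control, while the 6 muscle markers were lower in AnkGKO, at 2.48 and 1.89 CPM against 26.3 to 52.7 in control, 2.30 to 309 in NFKO and 2.26 to 150 in DKO. The 5 choroid plexus markers were at 9.68 and 6.995 CPM in AnkGKO and 9.93 to 14.3 in control. AnkGKO and control thus did not overlap in these 5 sums, no marker of the lists was called between them, and the part of the sums in Gas5 was not tested.

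Against control, NFKO and DKO showed no called change of Gas5. The log2 fold change was -0.10 in NFKO (standard error 0.12, 95% interval -0.38 to 0.17, adjusted p = 0.967 from edgeR) and -0.03 in DKO (standard error 0.12, 95% interval -0.30 to 0.24, adjusted p = 0.970 from edgeR). Ank3 was low in DKO as in AnkGKO, and the 3 DKO libraries lay within the control range of Gas5. The interaction of both deletions, which asks whether the effect of AnkG loss differs with Nfasc deleted, was -0.74 on the log2 scale (standard error 0.18) and did not meet the thresholds, where 0.53% of all genes were called. DESeq2 called Gas5 for the interaction and called no other member in any comparison.

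None of the other members was called in any comparison. Snhg5, the host of Snord50a and Snord50b, was at 6.86, 6.48 and 5.26 CPM in control, 4.74, 4.87 and 5.89 in NFKO, 6.29 and 5.93 in AnkGKO, and 6.93, 6.30 and 6.57 in DKO. All 3 DKO libraries lay above all 3 NFKO libraries, and the difference of 0.35 on the log2 scale (standard error 0.14, 95% interval 0.06 to 0.65) had a p of 0.0232 before and 0.230 after adjustment in edgeR, so that it was not called. With Xist as a covariate it was 0.13 (standard error 0.19). Snhg5 was also lower in NFKO than in AnkGKO and higher in DKO than in AnkGKO without overlap, by narrow gaps, and neither difference was called. DKO against NFKO was the comparison with the most called genes, 0.615% of those tested.

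Snhg6, the host of Snord87, was at 6.37, 6.30 and 5.36 CPM in control, 6.98, 5.34 and 7.08 in NFKO, 7.12 and 6.43 in AnkGKO, and 5.39, 5.77 and 5.84 in DKO. The AnkGKO libraries were above those of control and DKO without overlap, but the log2 fold change from control was 0.17 (standard error 0.15, adjusted p = 0.998 from edgeR) and that of DKO from AnkGKO was -0.26 (standard error 0.15, adjusted p = 0.670). Snhg8, the host of Snora24, was lower in AnkGKO (8.42 and 8.15 CPM) than in control (8.92, 9.70 and 9.26) and NFKO (8.84, 9.23 and 9.87), with a log2 fold change from control of -0.17 (standard error 0.12, adjusted p = 0.998 from edgeR). In DKO Snhg8 spread from 8.26 to 10.6 CPM. Neither gene was called in any comparison.

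Snhg1, whose introns hold 8 snoRNA genes, was at 5.199, 6.38 and 5.33 CPM in control, 4.67, 4.76 and 5.30 in NFKO, 5.84 and 4.80 in AnkGKO, and 5.27, 5.81 and 6.28 in DKO, and every pair of genotypes overlapped. Snhg12 overlapped likewise, with 7.76 to 9.82 CPM in control, 6.68 to 9.55 in NFKO, 6.52 and 9.04 in AnkGKO, and 8.45 to 10.6 in DKO. Snhg11 was at 815, 982 and 694 CPM in control, 578, 873 and 741 in NFKO, 800 and 720 in AnkGKO, and 746, 803 and 812 in DKO. Its spread was between libraries of the same genotype, and every pair of genotypes overlapped. Its log2 fold change from control was -0.18 in NFKO (95% interval -0.52 to 0.15), -0.13 in AnkGKO (-0.50 to 0.25) and -0.08 in DKO (-0.41 to 0.26).

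**Figure D3:**
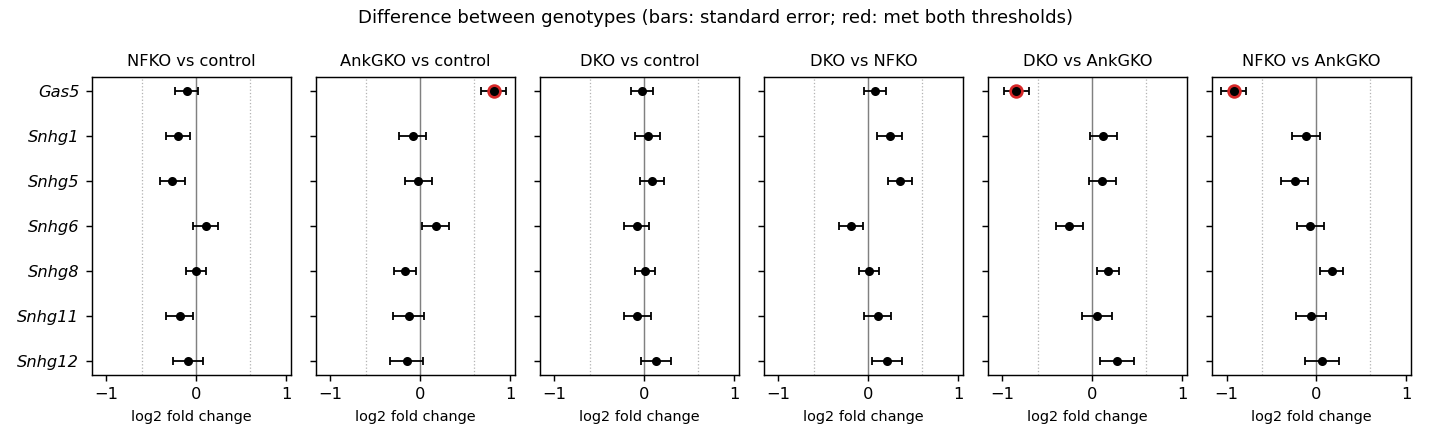
Log2 fold change of the 7 host genes in 6 comparisons of genotypes from 1 edgeR fit over all 11 libraries, with bars for the standard error, dotted lines at the threshold of 0.6 and red rings for genes that met both thresholds. Gas5 is ringed in the 3 comparisons with AnkGKO, and the other 6 members lie between the dotted lines in all panels.

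Counted over all 7, no member was called between NFKO and control, where 0.365% of all genes were called, none between DKO and control (0.0228%) and none between DKO and NFKO. Before adjustment, a p under 0.05 was reached by 0, 0 and 1 member in these 3 comparisons, beside 7.69%, 7.77% and 16.2% of all genes, and DESeq2 called 0 in each. The libraries of the 2 genotypes did not overlap in 0 members for NFKO and control, where 13.9% of all genes had this pattern, in 3 for AnkGKO and control (24%), in 0 for DKO and control (14.4%), in 1 for DKO and NFKO (19.3%), in 3 for DKO and AnkGKO (23.7%) and in 3 for NFKO and AnkGKO (23.9%).

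Gas5 shares 134 exonic bases with Zbtb37, a zinc finger gene on the opposite strand, so that reads could be shared if strand was not used in counting. Zbtb37 was at 3.82, 4.21 and 4.64 CPM in control and 3.96 and 4.54 in AnkGKO. These libraries overlapped, with a log2 difference of 0.01 (standard error 0.25, adjusted p = 0.999 from edgeR). Snhg1 shares 743 exonic bases with Slc3a2, also on the opposite strand, which was at 137 to 163 CPM over all libraries. If strand was not used in counting, the level of Snhg1, its place per kilobase and its fold changes could be affected, which was not tested. Of the 50-base words in the canonical Gas5 transcript, 9 of 620 (1.45%) also occur elsewhere in the genome, and the share was at most 3.07% in the other members, in Snhg5.

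The snoRNAs themselves were scarcely captured by the polyadenylated libraries. Of the 27 snoRNA genes inside the members, 8 were listed in the table, and 7 of these were tested. Snord47, the only snoRNA of Gas5 listed, had 19, 22 and 12 counts in control, 15, 17 and 15 in NFKO, 24 and 24 in AnkGKO, and 17, 11 and 25 in DKO. Summed by genotype this is 0.407 CPM in control (exact 95% Poisson interval 0.305 to 0.533) and 0.508 in AnkGKO (0.375 to 0.673), and these intervals cover counting error only. AnkGKO thus stood 0.32 above control on the log2 scale (standard error 0.36), and with an adjusted p of 0.998 from edgeR Snord47 was not called. Snord22 of Snhg1 had 243 counts in all and Snora61 of Snhg12 had 255, while Snord87 had 16 and Snora24 had 0, for which the floor of 3 counts is a one-sided limit. Snora61, with 27, 29 and 28 counts in control and 17, 18 and 21 in NFKO, was lower in NFKO without overlap, by -0.87 on the log2 scale (standard error 0.28, adjusted p = 0.394 from edgeR), which was not called. Over 74 tested genes named Snord, Snora or Scarna, 0 were called by edgeR or DESeq2 in any comparison. Before adjustment, 1 had a p under 0.05 in edgeR between AnkGKO and control, where 5.39% of all genes did, and 3 between NFKO and control (7.69%).

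**Figure D4:**
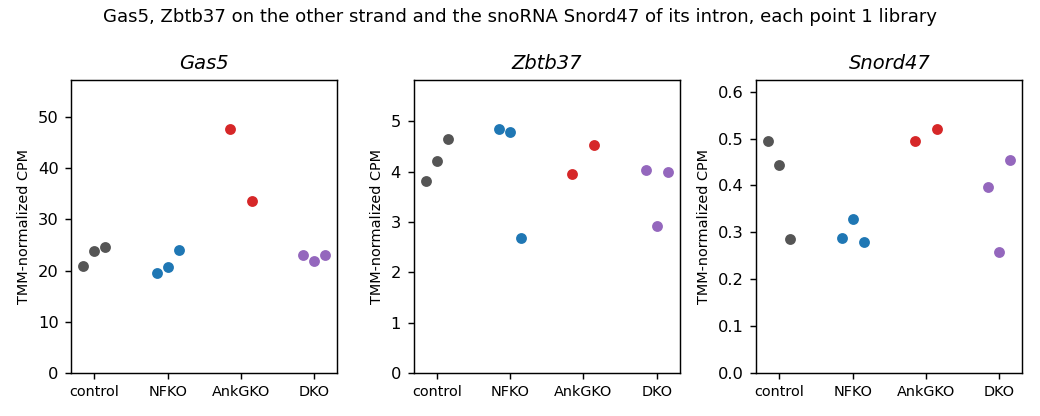
TMM-normalized CPM of Gas5, of Zbtb37, which overlaps it on the opposite strand, and of Snord47, which lies in a Gas5 intron, in each of the 11 libraries by genotype, with axes that start at 0. Gas5 is high in AnkGKO at 47.8 and 33.6 CPM, Zbtb37 stands at 3.96 and 4.54 CPM there, and Snord47 spans 0.26 to 0.52 CPM over all libraries.

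The positions of the members were set beside that of Nfasc, since the genotypes differ in its alleles. Gas5 lies 28.2 Mb from Nfasc and Snhg6 lies 122 Mb from it. Between AnkGKO and control, 6 of 276 tested genes within 30 Mb of Nfasc were called (2.17%), which were Gas5, the polarity gene Crb1, the cathepsin gene Ctse, the replication helicase gene Mcm6, the neuron navigator gene Nav1 and the troponin gene Tnni1, and the last 5 lie within 10 Mb. Chromosome 1 held 9 of the 28 called genes with a known position (32.1%), against 6.13% of the genes tested. In NFKO and DKO against control, none of the 276 genes was called, and neither was any of the 474 genes within 30 Mb of Ank3 between AnkGKO and control. With these groups, the loss of AnkG alone and the absence of the floxed Nfasc allele cannot be told apart. The nearest coding genes on either side of Gas5 that do not overlap it were not called: Cenpl, 32165 bases away, differed by -0.02 on the log2 scale, and Serpinc1, 28360 bases away on the other side, had a mean of at most 0.063 CPM in any genotype.

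**Figure D5:**
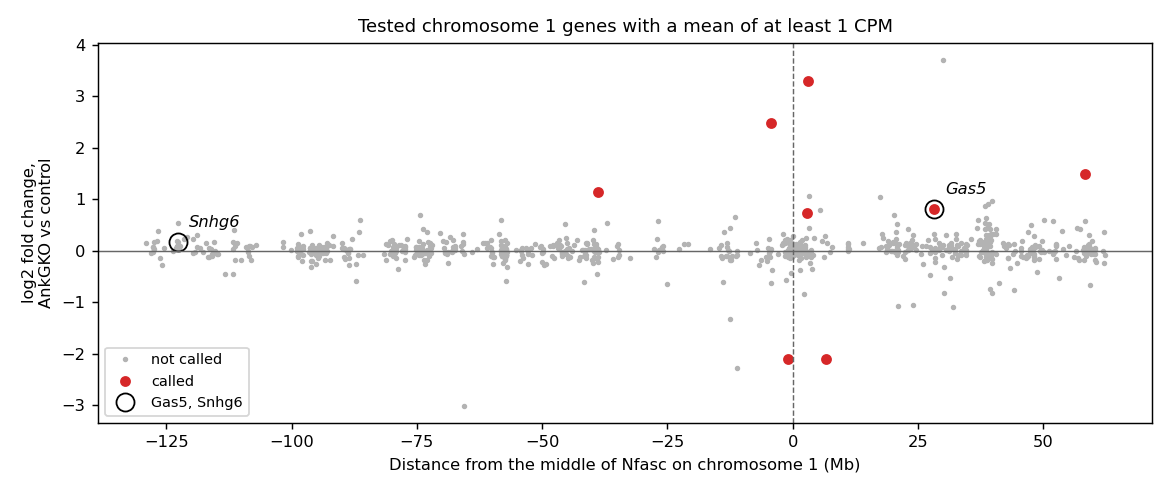
Log2 fold change between AnkGKO and control (vertical axis) of tested chromosome 1 genes with a mean of at least 1 CPM, by their distance from the middle of Nfasc in Mb (dashed line); red points met both thresholds and rings mark Gas5 and Snhg6. Gas5 lies at 0.82 about 28.2 Mb from Nfasc, and Snhg6 lies at 0.17 about 122 Mb from it.

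The genes whose levels followed each member most closely were found by Pearson's r of log2 CPM over the 11 libraries, among 11693 genes with a mean of at least 5 CPM. These are descriptions over libraries that share genotypes and depth, and carry no test. For Gas5 they were Tmem194b (now Nemp2, a nuclear envelope protein gene; r = 0.947), Cwc22 (a splicing factor gene; r = 0.905) and Sub1 (a transcription coactivator gene; r = 0.903). Cwc22 was at 51.0 and 56.7 CPM in AnkGKO and at 8.71 to 9.99 in the other 9 libraries, and it was itself called. Tmem194b and Sub1 differed by 0.22 and 0.25 on the log2 scale between AnkGKO and control and were not called. Since Gas5 varied by 7.62% over the 9 libraries outside AnkGKO, these r rest largely on the AnkGKO libraries. They were not computed without those libraries.

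The Snhg genes had other companions. Snhg5 was closest to Rnf31 (r = 0.949), Nfxl1 (0.923) and the amino acid transporter gene Slc7a5 (0.893), and Snhg1 to the transporter gene Slc7a3 (0.937), Meis3 (0.893) and Cspg5 (0.891). Snhg11 was closest to Meg3, another abundant noncoding RNA of neurons (r = 0.939), then to Akap8l (0.871) and B230206F22Rik, now Ftx (0.869). Snhg12 followed Kifc2 (0.967), Araf (0.937) and Bex2 (0.934), Snhg6 followed Bmf (0.940), Zfp661 (0.875) and Dcaf11 (0.860), and Snhg8 followed Nob1, a ribosome assembly gene (0.869), Ifrd1 (0.840) and Rnf114 (0.837). Among the members themselves, r exceeded 0.5 in 6 of 21 pairs, all between Snhg genes and led by Snhg1 with Snhg12 (0.653), and it was below 0 in 6 pairs. Gas5 had its highest r with Snhg6 (0.404), which turned to -0.20 over the 9 libraries without AnkGKO, while that with Snhg12 went from -0.01 to 0.619.

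The other noncoding snoRNA hosts served as a comparison. Of 21 listed, 9 were tested, and edgeR called 0 in any comparison. Between AnkGKO and control, 2 of the 9 were higher and 7 lower, with a median log2 fold change of -0.08 beside -0.01 for all genes. None had a p under 0.05 before adjustment, where 5.39% of all genes did. The 2 with the smallest p were Snhg9 (-1.34, standard error 1.10, with genotype means of at most 0.324 CPM) and Rian (-0.10, standard error 0.10). Snhg7 averaged 3.31 ± 0.0924 CPM over the 3 DKO libraries (mean ± SD), against 2.52 ± 0.393 over the 3 of control, 2.49 ± 0.149 over the 3 of NFKO and 2.31 ± 0.0657 over the 2 of AnkGKO, and was not called. DESeq2 called Snhg9 between DKO and NFKO and no other host of this list in any comparison.

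The pathways around these hosts showed no called gene either in edgeR between AnkGKO and control. Of 33 tested protein-coding snoRNA hosts, among them ribosomal protein genes, 15 were higher and the median was -0.02. Before adjustment 1 had a p under 0.05, where 5.39% of all genes did. It was Rpl13a at -0.21 (standard error 0.09), followed by Rpl3 at -1.03 (standard error 0.59). The 17 tested proteins that assemble snoRNAs into particles had a median of -0.03, and none had a p under 0.05. Their smallest p belonged to the assembly factor genes Rpap3, at 0.26 (standard error 0.14), and Znhit3, at -0.17 (standard error 0.12). Of 18 tested factors of nonsense-mediated decay, the RNA decay pathway that degrades many spliced hosts, 9 were higher, with a median of -0.01, and the lowest p belonged to Pnrc2, which averaged 39.1 ± 4.38 CPM over the 2 AnkGKO libraries (mean ± SD) and 49.0 ± 2.02 over the 3 of control, a log2 difference of -0.33 (standard error 0.08, adjusted p = 0.259 from edgeR). Upf2, a core factor of the pathway, came next at 0.17 (standard error 0.09). The 16 genes of mTOR and TOP mRNA control had a median of 0.05, with Larp1, which binds TOP mRNAs, at 0.12 (standard error 0.08) and Mlst8, an mTOR complex subunit gene, at -0.08 (standard error 0.07). DESeq2 called none of these genes between AnkGKO and control.

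The glucocorticoid receptor and its targets were listed because Gas5 RNA can bind the receptor. Of 18 tested, edgeR called 0 in any comparison, and the median difference between AnkGKO and control was 0.09. Nr3c1, the receptor gene, differed by 0.22 (standard error 0.10, adjusted p = 0.928 from edgeR). Zbtb16, a transcription factor gene induced by glucocorticoids, averaged 13.6 ± 2.99 CPM over the 3 NFKO libraries (mean ± SD) and 13.2 ± 0.840 over the 2 of AnkGKO, against 41.3 ± 14.7 over the 3 of control and 29.3 ± 12.7 over the 3 of DKO, and its log2 fold change of -1.65 in AnkGKO (standard error 0.45) had an adjusted p of 0.467 in edgeR, while DESeq2 called it there, in NFKO and for the interaction. In DKO against NFKO the median of the list was 0.29 beside 0.00 for all genes, 7 of the 18 had a p under 0.05 before adjustment (16.2% of all genes did), led by Per1 (0.74, standard error 0.19, adjusted p = 0.1247) and Klf9 (0.32, standard error 0.09, adjusted p = 0.143, both from edgeR), and DESeq2 called Sgk1, Per1 and Mt1. Gas5 itself differed by 0.08 in that comparison.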

How the data were processed

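Per the labels and the study's methods, the authors trimmed reads with Trimmomatic 0.39 after FastQC 0.12.1, aligned them to GRCm39 with STAR 2.7.11a and deposited raw counts per gene symbol. The counting tool is given as STAR, while the footer of the table has the lines of another counter, and the strand setting is not given in the sources used here. The kit was directional. The authors also deposited a table of normalized signal, the counts divided by DESeq2 1.40.2 size factors, which was read only to check that it holds the members. The labels give single-end reads of 100 bases, while the methods give paired reads. The methods name more AnkGKO mice than the 2 libraries analysed here.

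From the counts, TMM-normalized CPM and edgeR 4.0.16 quasi-likelihood fits (R 4.3.3) were computed over all 11 libraries, after leaving out 5 summary lines and genes with fewer than 10 counts in all, with Benjamini-Hochberg adjustment over 17557 genes. No-feature reads were 14.1 to 15.4% of uniquely aligned reads, and reads not uniquely aligned were 32.5 to 34.3% of all reads in the table. The study's thresholds were used for a call, an adjusted p under 0.05 with a log2 difference of 0.6 or more in size. The labels number the libraries as biological replicates. DESeq2 1.42.0, other filters and scalings, covariates and left-out libraries were alternatives, and the fit was tested on simulated data. The members and gene lists were chosen with earlier results of these data known. Named are the members, the 3 genes most like each, neighbouring and overlapping genes, and of each list the 2 genes with the smallest p in the comparison described. Genes called by DESeq2, Snhg7, Snora61 and the called genes near Nfasc were named after their values were seen. Likeness used log2 of CPM plus 0.1. Positions are from GENCODE vM39, and sequences from RefSeq (GRCm38.p6 tables) matched to GRCm39. Same-numbered libraries deviated together between control and NFKO (r = 0.577, 0.482 and 0.251 over 13910 genes) but not in every pair of the other genotypes. Some annotated genes are not reported here.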

Additional observations from a re-analysis of the deposited data

How the results depend on the processing

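The number of members called was 0 under every alternative between NFKO and control, DKO and control, and DKO and NFKO. Between AnkGKO and control it was 1 (Gas5) and became 0 with only the libraries compared, with the replicate block, with Xist as a covariate, with control replicate 1 and NFKO replicate 1 excluded together, and with a covariate of summed granule cell genes, which was chosen after seeing the data. Leaving out 1 library at a time gave 0 to 1, with 0 without any 1 of the control or DKO libraries, NFKO replicate 2 or AnkGKO replicate 1. Between DKO and AnkGKO it was 1 and became 0 with only the libraries compared, with Xist as a covariate and with control replicate 1 and NFKO replicate 1 excluded together, and was 0 to 1 with 1 library left out (0 without control replicate 2 or 3, AnkGKO replicate 1 or any DKO library). Between NFKO and AnkGKO it was 1 and became 0 with only the libraries compared and with control replicate 1 and NFKO replicate 1 excluded together, and was 0 to 1 with 1 library left out (0 without NFKO replicate 1 or AnkGKO replicate 1). For the interaction it was 0, 1 with DESeq2, and 0 to 1 with 1 library left out (1 without AnkGKO replicate 2). The causes were not tested, and where a genotype was left with 1 library, that library was assumed to vary like the others.

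Gas5 kept its direction in all 20 alternatives between AnkGKO and control, at 0.53 to 1.05 on the log2 scale, and was called in 7. It was at -1.08 to -0.57 between DKO and AnkGKO (called in 11 of 20), at -1.15 to -0.64 between NFKO and AnkGKO (16 of 20) and at -0.97 to -0.46 for the interaction (2 of 19). Every alternative used 1 or both of the AnkGKO libraries, whose values were known when the members were chosen. The kept direction and the numbers of calls of Gas5 are therefore descriptions only. With the replicate block, Gas5 was at 0.86 between AnkGKO and control and missed the thresholds, and the block changed the number of members called in no other comparison. Over all genes, DESeq2 called more than edgeR in every comparison: 159 and 64 for NFKO and control, 102 and 29 for AnkGKO and control, 44 and 4 for DKO and control, 418 and 108 for DKO and NFKO, 99 and 30 for DKO and AnkGKO, 198 and 71 for NFKO and AnkGKO, and 318 and 93 for the interaction. With Xist as a covariate edgeR called 31, 13, 42, 10 and 19 genes for NFKO and control, AnkGKO and control, DKO and NFKO, DKO and AnkGKO, and the interaction. Without control replicate 1 and NFKO replicate 1 it called 29, 59, 33 and 42 for NFKO and control, DKO and NFKO, NFKO and AnkGKO, and the interaction, and with only the libraries compared 11 for DKO and AnkGKO. With 1 library left out it called 40 to 71 for NFKO and control, 17 to 35 for AnkGKO and control, 4 to 8 for DKO and control, 68 to 162 for DKO and NFKO, 13 to 40 for DKO and AnkGKO, 28 to 77 for NFKO and AnkGKO, and 54 to 103 for the interaction. For the Snhg genes, Snhg11 among them, differences from control within their 95% intervals were not excluded with this number of mice.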
